A study of Mus musculus with 16 samples.

Results

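The loci of 8 inflammatory cytokine genes (Tnf, Lta, Il1a, Il1b, Il12b, Il12a, Il6 and Il10) were examined for H3K4me1, monomethylated lysine 4 of histone H3, in unstimulated mouse cells. The members are all summits of H3K4me1 peaks in 6 fixed windows of the mm9 genome that together cover 680 kb. Within the windows every listed summit was taken, whatever its score, but the loci were chosen with earlier results of these data known. The windows held 72 of the 79796 summits listed for dendritic cells and 42 of the 81860 listed for 3T3 cells. The series has 16 samples, of ChIP-seq for H3K4me1, H3K27ac and acetylated H4 and of input DNA, for unstimulated and stimulated (2 h) cells of both types. The 2 H3K4me1 libraries of unstimulated cells are used here, and the other 14 samples were not analysed here.

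The first group, H3K4me1_unstim_DC, is dendritic cells grown from mouse bone marrow progenitors in which a retrovirus expressed a hairpin targeting JmjD2d, an enzyme that removes histone methylation. They were selected with histidinol and differentiated in GM-CSF with SCF for 4 days and in GM-CSF alone for 4 more days. The second group, H3K4me1_unstim_3T3, is 3T3, an established mouse fibroblast line, with no treatment. The labels give neither strain nor age of the mice. As the hairpin was present in the dendritic cells and not named for 3T3, effects of the cell type and of the hairpin cannot be told apart. The cell type field of the 3T3 sample names dendritic cells, but the title, the description and the header of the list all say 3T3. Each group is 1 library, so no difference between the cell types below was tested and none has a replicate error. The intervals given cover counting error only and take summits as independent. No RNA was measured, so the cell types were not checked against marker genes.

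H3K4me1 is laid down at enhancers and beside promoters, and it can be present before a gene is switched on. Most of the cytokines of these loci are made by dendritic cells and macrophages soon after microbial products such as LPS are sensed through Toll-like receptors and NF-kB. Tnf, Il1a, Il1b, Il12a, Il12b and Il6 encode inflammatory cytokines or their subunits, Lta encodes lymphotoxin alpha, and Il10 encodes an anti-inflammatory cytokine. Fibroblasts are known to make IL-6 after stimulation by cytokines such as TNF-alpha. The libraries used here show the mark before any stimulus was given.

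Dendritic cells had more summits than 3T3 cells at 5 of the 6 windows, and 3T3 cells had more at the Il6 window. Over the 6 windows, dendritic cells had 72 summits (exact Poisson 95% interval 56.3 to 90.7) and 3T3 cells had 42 (30.3 to 56.8). Relative to the totals of the lists, this was 1.76 times as many in dendritic cells (exact conditional 95% interval 1.19 to 2.64). The Il10 window was the most one-sided, at 5.64 times (1.23 to 52.4), and the Il6 window lay on the other side, at 0.733 times (0.183 to 2.68). At the other windows the ratio was 1.37 (0.416 to 4.78) for Tnf/Lta, 1.85 (0.808 to 4.48) for Il1a/Il1b and also for Il12b, and 1.76 (0.638 to 5.27) for Il12a. All these intervals but that of Il10 include a ratio of 1, so at single windows other than Il10 the difference is within the counting error. The Il10 interval was not adjusted for its place as the most one-sided of the 6. It included a ratio of 1 when only equal numbers of top-scoring summits were kept, and with 50 kb added at both ends. As background, 56.7% of the 11549 windows of 100 kb in the genome with 5 or more summits had relatively more dendritic cell summits, and 23.3% had at least 2-fold more. In 22% of them 3T3 cells had at least 2-fold more.

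**Figure D1:**
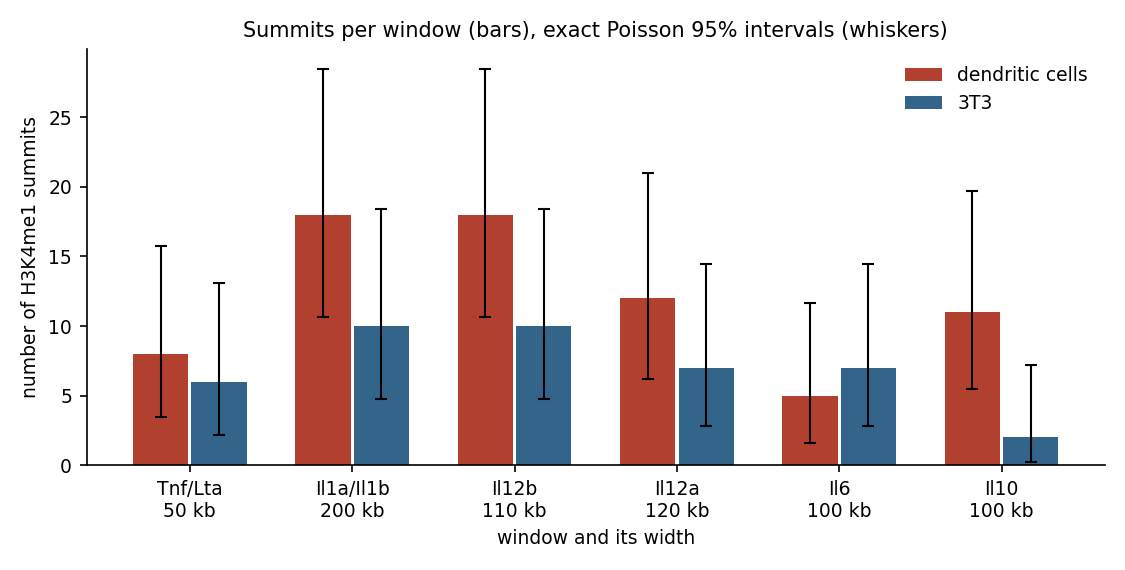
Number of H3K4me1 summits (vertical axis) in each cytokine window (horizontal axis, with its width), dendritic cells left and 3T3 right, with 1 library each and exact Poisson 95% intervals as whiskers. The bar of dendritic cells is the taller one at each window except Il6, where it stands at 5 against 7 for 3T3.

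In the windows as given, the dendritic cell summits ranked higher within their own list than the 3T3 summits within theirs. The deposited score of a summit was taken as the height of the signal there, although the header does not name it, and it was ranked within its list because no scaling between the lists is recorded. In dendritic cells 15 of the 72 summits (20.8%) scored in the top 10% of the list, where ties make the share of the whole list 10.2%. In 3T3 cells 2 of the 42 (4.76%) did, beside 10.1% of the whole list. In dendritic cells 50 of the 72 (69.4%) scored above the list median of 36, and in 3T3 cells 23 of the 42 (54.8%) scored above the list median of 33, against 48.9% of either whole list. The median percentile was 67.7 in dendritic cells and 58.9 in 3T3 cells. With 50 kb added at both ends of each window the medians nearly met, at 60.2 for dendritic cells and 59.8 for 3T3 cells. By window, the median percentile in dendritic cells ran from 37.1 at Il6 to 89.3 at Tnf/Lta. In 3T3 cells it ran from 36.9 at Il12b to 76.2 at Il6, so Il6 stood lowest in dendritic cells and highest in 3T3.

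**Figure D2:**
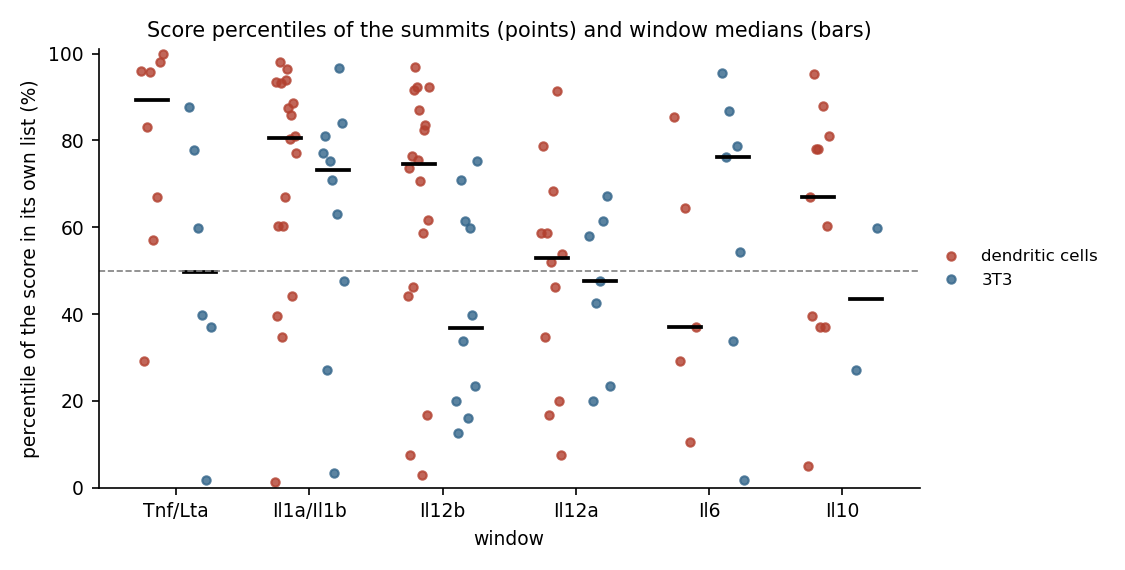
Percentile of each summit's score within its own list (vertical axis, percent) by window (horizontal axis), dendritic cells left and 3T3 right. Points are summits, black bars are medians, and the dashed line marks the middle of a list; the median of dendritic cells is 89.3 at Tnf/Lta and 37.1 at Il6, while that of 3T3 is 49.8 at Tnf/Lta and 76.2 at Il6.

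The regulatory sequences next to these genes differ in the factor motifs they hold. Of the 8 genes, 7 matched an entry in the RefSeq table of promoters, which is of GRCm38.p6, and Il10 did not. Those of Tnf, Il12b and Il6 are shown because their windows held the highest dendritic cell summits, the most paired summits and the reverse order of the cell types. Each is the 250 bases before the annotated start, with motif matches in capitals. As the summits are on mm9, none was placed at a promoter.
Tnf (GRCm38.p6, chr17:35202008-35202257, minus strand): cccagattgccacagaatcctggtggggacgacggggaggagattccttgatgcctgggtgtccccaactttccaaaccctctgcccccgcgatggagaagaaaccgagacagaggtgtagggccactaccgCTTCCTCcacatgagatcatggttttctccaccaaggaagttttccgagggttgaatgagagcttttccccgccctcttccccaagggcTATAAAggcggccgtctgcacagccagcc
Il12b (GRCm38.p6, chr11:44399813-44400062, plus strand): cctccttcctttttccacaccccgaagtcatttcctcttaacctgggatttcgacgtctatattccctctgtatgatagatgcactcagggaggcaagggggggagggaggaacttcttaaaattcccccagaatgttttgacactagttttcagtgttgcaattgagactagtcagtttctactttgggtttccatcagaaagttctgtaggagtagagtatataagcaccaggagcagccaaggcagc
Il6 (GRCm38.p6, chr5:30012864-30013113, plus strand): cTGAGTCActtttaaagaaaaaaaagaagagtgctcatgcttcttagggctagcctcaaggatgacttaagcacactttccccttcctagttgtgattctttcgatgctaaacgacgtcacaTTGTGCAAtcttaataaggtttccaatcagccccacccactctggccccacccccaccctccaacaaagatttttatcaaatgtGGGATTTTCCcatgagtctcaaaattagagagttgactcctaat

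Matches were sought on both strands for the NF-kB consensus, AP-1 (TGANTCA), C/EBP (TTGCNNAA), PU.1 (GAGGAAG), IRF (GAAA repeated after 2 further bases), CRE (TGACGTCA) and the TATA box (TATAAA), and none of the matches in these 7 genes overlapped another. The Il6 stretch held an NF-kB match 44 to 35 bases before the start and an AP-1 match at 249 to 243. It also held a C/EBP match at 128 to 121, on the other strand. Among 27025 genes, 7.01% held the NF-kB consensus in such a stretch, 9.55% the C/EBP motif and 6.87% the AP-1 motif. The Tnf stretch held a PU.1 match at 118 to 112, on the other strand, and a TATA box at 29 to 24, found in 10.4% and 13.0% of genes. The same letters were found 32 to 27 bases before the start for Il1a and 31 to 26 for Il1b. For Lta they lay farther off, at 167 to 162. Il1a held an AP-1 and a PU.1 match too. The Il12b stretch and both stretches listed for Il12a held none of these motifs. No gene of the 7 held the IRF motif (3.04% of genes) or the CRE (1.62%).

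The Tnf/Lta window, chr17:35310000-35360000 of mm9, held the highest dendritic cell summit of all the windows, and 4 of its 8 were in the top 10% of the list. In the RefSeq order of protein-coding genes on GRCm38.p6, Ltb, Tnf, Lta and Nfkbil1 follow each other. Tnf and Lta encode related ligands of the TNF family. Along the chromosome the 8 dendritic cell summits scored 102, 27, 65, 100, 40, 47, 118 and 177. The 6 3T3 summits scored 69, 53, 38, 29, 17 and 28 in the same direction. No 3T3 summit was in the top 10% of its list, and the highest of them was at percentile 87.7. The summit at 35359809, with a score of 177, was at percentile 99.9 in dendritic cells. It lay 191 bp inside the end of the window and 3080 bp from the nearest 3T3 summit, which scored 28. The first dendritic cell summit, at 35310020, lay 20 bp inside the start. The excess of dendritic cell summits at this window depended on its ends. With the window narrowed by 25% at both ends there were 4 summits in dendritic cells and 4 in 3T3 cells, and with 50 kb added at both ends there were 21 in dendritic cells and 20 in 3T3 cells. The longest runs of dendritic cell summits with no 3T3 summit between them had 2 summits each, from 35315833 to 35322182 and from 35339602 to 35346603.

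The window held 2 pairs, 1 of like and 1 of unlike height. The first was the dendritic cell summit at 35322182, with a score of 65, and the 3T3 summit at 35322664, with 53. The second was the dendritic cell summit at 35346603, with a score of 118, and the 3T3 summit 811 bp away, with a score of 17. Relative to the median of all 24378 mutually nearest pairs within 1000 bp in the genome, the dendritic cell score was 1.13 times as high at the first and 6.38 times as high at the second, which stood at percentile 99.9 of all pairs. In dendritic cells the summit of the second pair was at percentile 98.1 of its list, and in 3T3 cells the score of 17 was at percentile 1.69. The other 6 dendritic cell summits and 4 3T3 summits had no counterpart within 1000 bp. Among these, the summits at 35335914 and 35339602 in dendritic cells, with scores of 40 and 47, stood on either side of the 3T3 summit at 35337617, with a score of 29. Summits were dense in both cell types. Of 29606 windows of 50 kb with a summit in the genome, 4.39% held 8 or more dendritic cell summits and 13.4% held 6 or more 3T3 summits.

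**Figure D3:**
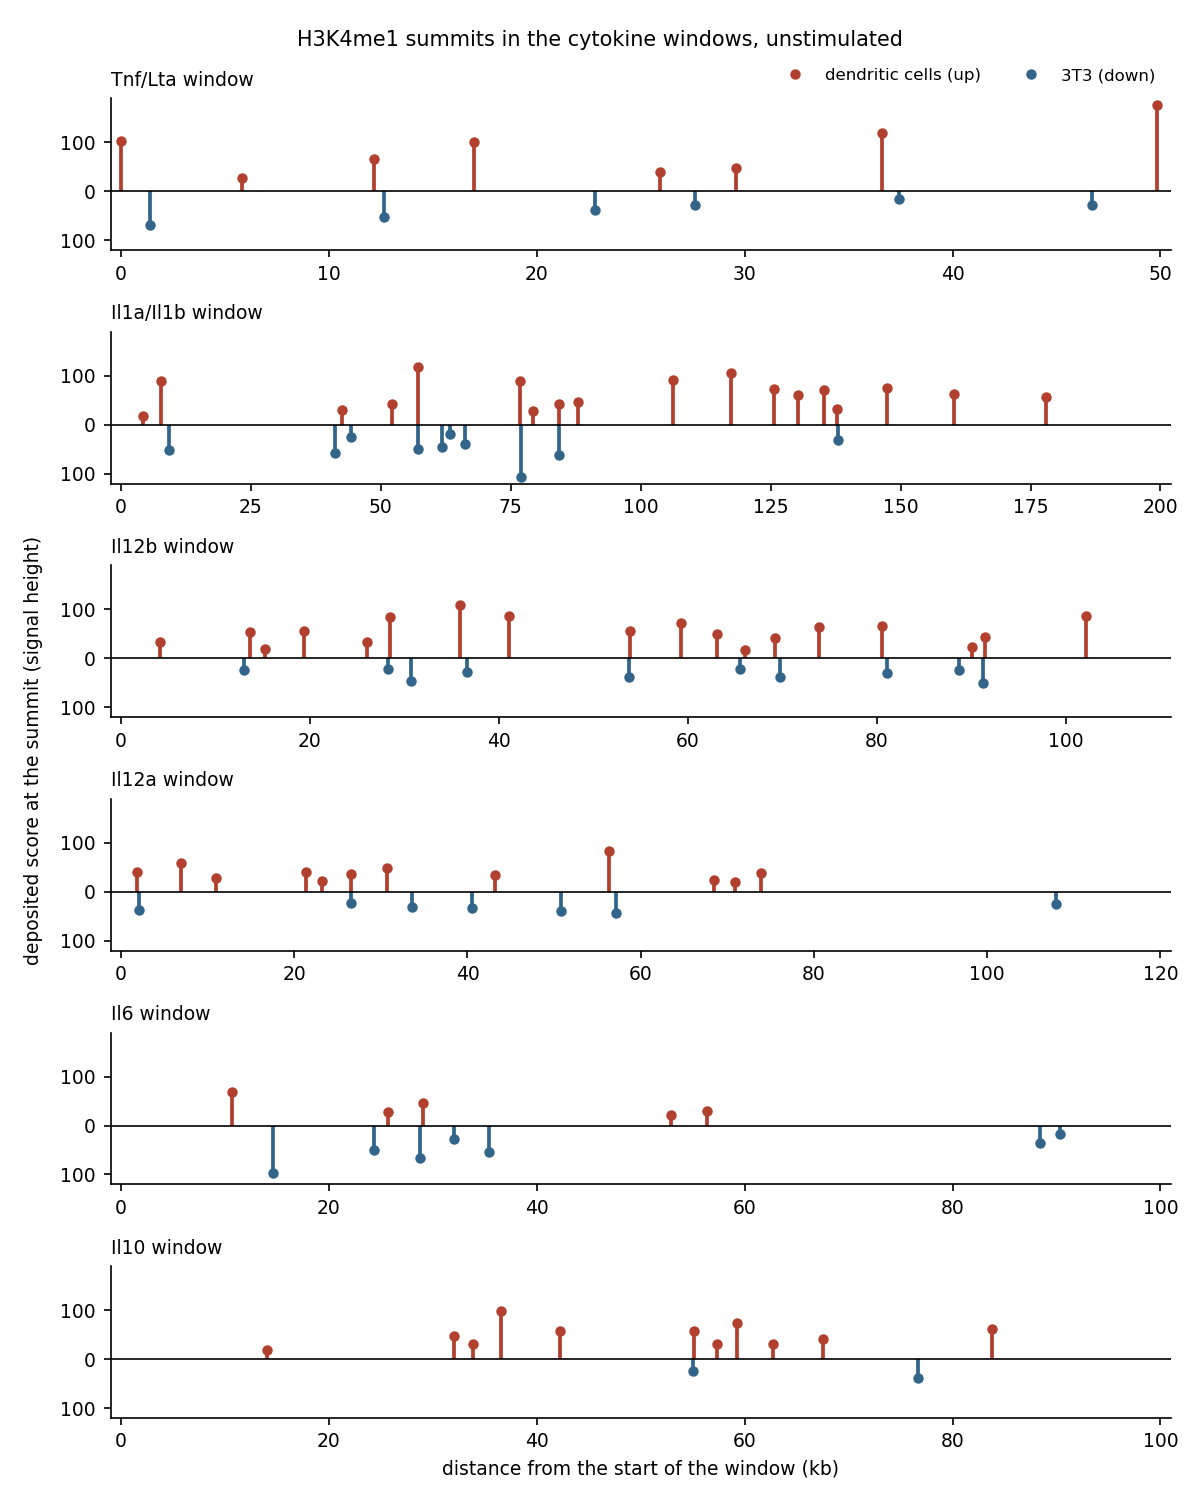
H3K4me1 summits in the 6 cytokine windows by distance from the start of the window (horizontal axis, kb) and deposited score (vertical axis, signal height, not scaled between the lists), dendritic cells drawn up and 3T3 drawn down. In the last 100 kb of the Il1a/Il1b window lie 9 dendritic cell summits and 1 3T3 summit, and in the Il10 window 2 3T3 summits stand beside 11 of dendritic cells.

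The Il1a/Il1b window, chr2:129080000-129280000, was marked in both cell types along its first 100 kb and, but for 1 summit of 3T3, in dendritic cells alone along its last 100 kb. Il1a and Il1b encode interleukin-1 alpha and beta, and in RefSeq order Ckap2l comes before them. Up to 129180000 there were 9 summits in dendritic cells and 9 in 3T3 cells. After it there were 9 in dendritic cells and 1 in 3T3 cells. How many stretches of 100 kb in the genome are as one-sided was not computed. For the whole window, 2220 windows of 200 kb had at least as many summits in all. Of these, 13.0% had as large a share of dendritic cell summits. Summits were not assigned to one or the other gene, for want of an mm9 annotation. The longest run of dendritic cell summits in any of the windows was here, with 8 summits from 129164322 to 129217776 and no 3T3 summit between them. The first and the last of these lay 68 and 126 bp from the 3T3 summits that bound the run. The scores of the run ranged from 33 to 105 with a median of 65.5, and those of 92 at 129186292 and 105 at 129197283 were in the top 10%. Beyond the 3T3 summit at 129217902 there were 3 more dendritic cell summits, with scores of 76, 62 and 57, and the last lay 40040 bp from any 3T3 summit.

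The first 100 kb showed the reverse at one place. The 3T3 summits that come before it lay at 129089287, 129121245 and 129124264, with scores of 52, 57 and 25. A run of 4 3T3 summits, from 129137207 to 129146140 with scores of 50, 46, 18 and 40, had no dendritic cell summit between them. Of the 4 pairs in this window, 3 had the relatively higher score in 3T3. At 129156852 the dendritic cell score was 89, and the 3T3 summit 160 bp away had the highest 3T3 score of all the windows, 107, at percentile 96.7 of its list. The relative ratio of dendritic cells to 3T3 was 0.764. At 129164322 the dendritic cell score of 42 stood against 62 in 3T3, a relative ratio of 0.622. At 129217776, which lies in the last 100 kb, the scores were 33 and 32, a relative ratio of 0.948. At the remaining pair, at 129137127, the dendritic cell score was 118 and the 3T3 score 80 bp away was 50, a relative ratio of 2.17. In 9435 windows of 200 kb with a summit, 16.5% held 18 or more dendritic cell summits and 40.9% held 10 or more 3T3 summits, so neither number was rare.

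The Il12b window, chr11:44150000-44260000, had 16.4 dendritic cell summits per 100 kb, close to the 16.0 at Tnf/Lta and above the other windows. Il12b encodes the subunit shared by IL-12 and IL-23, and its nearest protein-coding neighbours in RefSeq order are Adra1b and Ublcp1. When only the top-scoring 39898 summits of each list were kept, the density was 11.8 at Il12b and 14.0 at Tnf/Lta. With 50 kb added at both ends it was 12.4 at Il12b and 14.0 at Tnf/Lta. With windows narrowed by 25% at both ends it was 18.2 at Il12b, 18.0 at Il10 and 16.0 at Tnf/Lta. The order of the windows is therefore not fixed. Dendritic cells had 18 summits here (10.7 to 28.4) and 3T3 cells had 10 (4.80 to 18.4). Of 15624 windows of 110 kb with a summit, 0.582% held 18 or more dendritic cell summits, and 18.3% held 10 or more 3T3 summits. The dendritic cell summits spanned 97.9 kb with a median gap of 5132 bp, against 8173 bp in the whole list. Their scores ranged from 18 to 108 with a median of 54, and 4 were in the top 10%. These were the summits at 44178455 (84), 44185915 (108), 44191047 (86) and 44252090 (86). The longest run of dendritic cell summits had 4, from 44163614 to 44176020, with a median score of 43.5. The 3T3 scores ranged from 21 to 50 with a median of 28, and none was in the top 10%.

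Most 3T3 summits at Il12b had a dendritic cell summit beside them, and at 4 of the 8 pairs the dendritic cell summit was relatively at least 2-fold higher. Of the 10 3T3 summits, 2 (20%, exact Clopper-Pearson 95% interval 2.52 to 55.6) had no dendritic cell summit within 1000 bp, against 70.2% of the whole 3T3 list. These lay at 44180732, with a score of 46, and at 44238716, with a score of 24. Of the 18 dendritic cell summits, 10 (55.6%, 30.8 to 78.5) had no 3T3 summit within that distance, against 69.4% of the whole dendritic cell list. With 18 dendritic cell summits in 110 kb, the low 3T3 share is not separate from the summit numbers. Of the 8 pairs, 4 had a dendritic cell score at least 2-fold higher relative to the median of all pairs, which 11.6% of all pairs had, and none had a 3T3 score at least 2-fold higher, which 11.9% had. At 44178455 the scores were 84 in dendritic cells and 21 in 3T3, and at 44185915 they were 108 and 27. Both came to a relative ratio of 3.68, at percentile 98.2 of all pairs. The pairs at 44163614 (53 in dendritic cells and 23 in 3T3) and 44230524 (66 and 29) had relative ratios of 2.12 and 2.09. Of these 4 pairs, the one at 44178455 was 175 bp apart and the others were 520 to 751 bp apart. With pairs limited to 500 bp, 3 pairs were left at Il12b and 1 of them was 2-fold. The pairs at 44203911, 44215985, 44219222 and 44241380 had relative ratios between 0.752 and 1.30. In 3T3 the highest summit of the window, with a score of 50 at 44241206, stood beside a dendritic cell summit that scored 43.

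The Il12a window, chr3:68440000-68560000, was marked mostly at middling heights in both cell types. Il12a encodes the IL-12 subunit that pairs with the Il12b product, and Schip1 comes before it in RefSeq order. The 12 dendritic cell summits scored from 20 to 83 with a median of 37.5, close to the list median. The 7 3T3 summits scored from 23 to 43 with a median of 32. The longest run of dendritic cell summits had 4, from 68446976 to 68463214, with a median score of 35. The 3T3 summits without a counterpart lay at 68473639, 68480481, 68490759 and 68547898, with scores of 30, 32, 39 and 24. The summit at 68496356 stood out in dendritic cells with a score of 83, at percentile 91.4, and was the only one of the window in the top 10%. The highest 3T3 summit, with 43, lay 821 bp away, a relative ratio of 1.77. At the other pairs the relative ratios were 1.02 (41 in dendritic cells and 37 in 3T3) and 1.48 (37 and 23, at summits 28 bp apart). Summits were sparse in the last part of the window: after 68513851 there was no dendritic cell summit, and the last 3T3 summit lay at 68547898. In 14532 windows of 120 kb with a summit, 15.8% held 12 or more dendritic cell summits and 37.9% held 7 or more 3T3 summits.

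The Il6 window, chr5:30310000-30410000, was the only one where dendritic cells had fewer summits and a lower median percentile than 3T3 cells. Il6 encodes interleukin-6, and its neighbours in RefSeq order are Dnajb6 and Tyms. In dendritic cells 5 summits scored 69, 27, 45, 21 and 30 along the chromosome. In 3T3 cells 7 summits scored 98, 51, 67, 27, 54, 35 and 17. The 3T3 summit at 30324624, with 98, was at percentile 95.5 of its list, and the dendritic cell summit at 30320710, with 69, at percentile 85.4 of its own. These lay 3914 bp apart. The 3T3 summits from 30334345 to 30345404 form a group of 4 with scores of 51, 67, 27 and 54, beside dendritic cell summits at 30335678 (27) and 30339013 (45).

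The single pair at Il6, at 30339013 in dendritic cells and 30338743 in 3T3, had scores of 45 and 67 and a relative ratio of 0.617, at percentile 19.6 of all pairs. Past this group the lists parted: dendritic cells had summits at 30362898 and 30366380, with scores of 21 and 30, inside a stretch of 53.0 kb with no 3T3 summit. The number of summits was ordinary in both lists. Of 16889 windows of 100 kb with a summit, 44.7% held 5 or more dendritic cell summits and 31.7% held 7 or more 3T3 summits. The order of the numbers rests on the outer parts of the window, since narrowing it by 25% at both ends turned the log2 ratio of dendritic cells to 3T3 to 0.45 (-2.11 to 3.22), against -0.45 (-2.45 to 1.42) for the whole window.

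The Il10 window, chr1:132880000-132980000, held 11 summits of dendritic cells (5.49 to 19.7) and 2 of 3T3 cells (0.242 to 7.22). Il10 encodes interleukin-10, which restrains inflammatory cytokine production, and its neighbours in RefSeq order are Il19 and Mapkapk2. The dendritic cell scores along the chromosome were 19, 47, 31, 98, 58, 58, 30, 74, 30, 42 and 62. The 3T3 scores were 25 at 132935059 and 38 at 132956680. The highest dendritic cell summit, at 132916565 with 98, was at percentile 95.3 of its list, and the nearest 3T3 summit lay 18494 bp away. From the start of the window to 132935059 there were 5 dendritic cell summits and no 3T3 summit, and 5 more dendritic cell summits lay between the 3T3 summits.

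The single pair at Il10, at 132935171 in dendritic cells, had scores of 58 and 25 and a relative ratio of 2.13. Of the 11 dendritic cell summits, 10 (90.9%, 58.7 to 99.8) had no 3T3 summit within 1000 bp. The interval includes the 69.4% of the whole list. With only 2 3T3 summits in the window, this share is not separate from the summit numbers. Neither number was rare by itself. Of 16889 windows of 100 kb with a summit, 13.0% held 11 or more dendritic cell summits. In 36.0% of them 3T3 had 2 or fewer. Among the 5415 windows of 100 kb with at least as many summits in all, 2.36% had as large a share of dendritic cell summits. This was the lowest such value of the 6 cytokine windows. At their own widths the others had 4.10% (Il12b), 13.0% (Il1a/Il1b), 16.6% (Il12a), 31.1% (Tnf/Lta) and 79.6% (Il6). Chromosome 1 as a whole had 1.20 times as many dendritic cell as 3T3 summits relative to the list totals (1.15 to 1.25). On the chromosomes of the other 5 windows this ratio lay between 0.940 and 1.06. The part of the whole chromosome in the Il10 value was not tested. A 3T3 summit with a score of 87 lay 1.32 kb past the end of the window, and a dendritic cell summit with 131 lay 9.23 kb past it. With 50 kb added at both ends, the numbers were 17 in dendritic cells and 7 in 3T3, a log2 ratio of 1.32 (-0.03 to 2.83) against 2.50 (0.30 to 5.71) for the window itself.

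Over all windows, the share of dendritic cell summits with no counterpart within 1000 bp was within counting error of that in the whole list. The share of 3T3 summits with none was lower than in the whole list, by less once the Il12b window was left out. Neither share is separate from the summit numbers, which were 10.6 per 100 kb in dendritic cells and 6.18 in 3T3. In dendritic cells 53 of the 72 summits (73.6%, 61.9 to 83.3) had no 3T3 summit within 1000 bp, beside 69.4% of the whole list. In 3T3 cells 23 of the 42 (54.8%, 38.7 to 70.2) had no dendritic cell summit nearby, beside 70.2% of the whole list, a value just above the interval. Without the Il12b window it was 21 of 32 3T3 summits (65.6%, 46.8 to 81.4), an interval that includes the share of the whole list. Among the top-scoring 39898 summits of each list, the 3T3 share was 56.5% (34.5 to 76.8), against 77.7% of the top-scoring 3T3 list. The 19 shared summits of each list formed 19 pairs with a median distance of 261 bp, against 182 bp for all pairs. The dendritic cell score was relatively higher at 12 of them (63.2%), against 50% of all pairs. It was at least 2-fold higher at 7 (36.8%), against 11.6% of all pairs, namely 4 at Il12b and 1 each at Tnf/Lta, Il1a/Il1b and Il10. No pair had a 3T3 score at least 2-fold higher, against 11.9% of all pairs. With pairs allowed up to 2000 bp apart 2 of 24 had one, and with up to 5000 bp 2 of 28. Of all such pairs, 12.7 and 13.4% had one. Of the 7 pairs 2-fold higher in dendritic cells, 4 were over 500 bp apart. With pairs limited to 500 bp, 3 of 12 (25%) were 2-fold higher in dendritic cells, against 10.7% of all pairs within that distance. The median relative log2 ratio was 0.37, with a range from -0.70 at Il6 to 2.67 at Tnf/Lta. With pairs limited to 500 bp the median was 0.11. With only the top-scoring summits of each list it was 0.03, and 1 of 10 pairs was 2-fold higher in dendritic cells, against 5.47% of all such pairs.

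**Figure D4:**
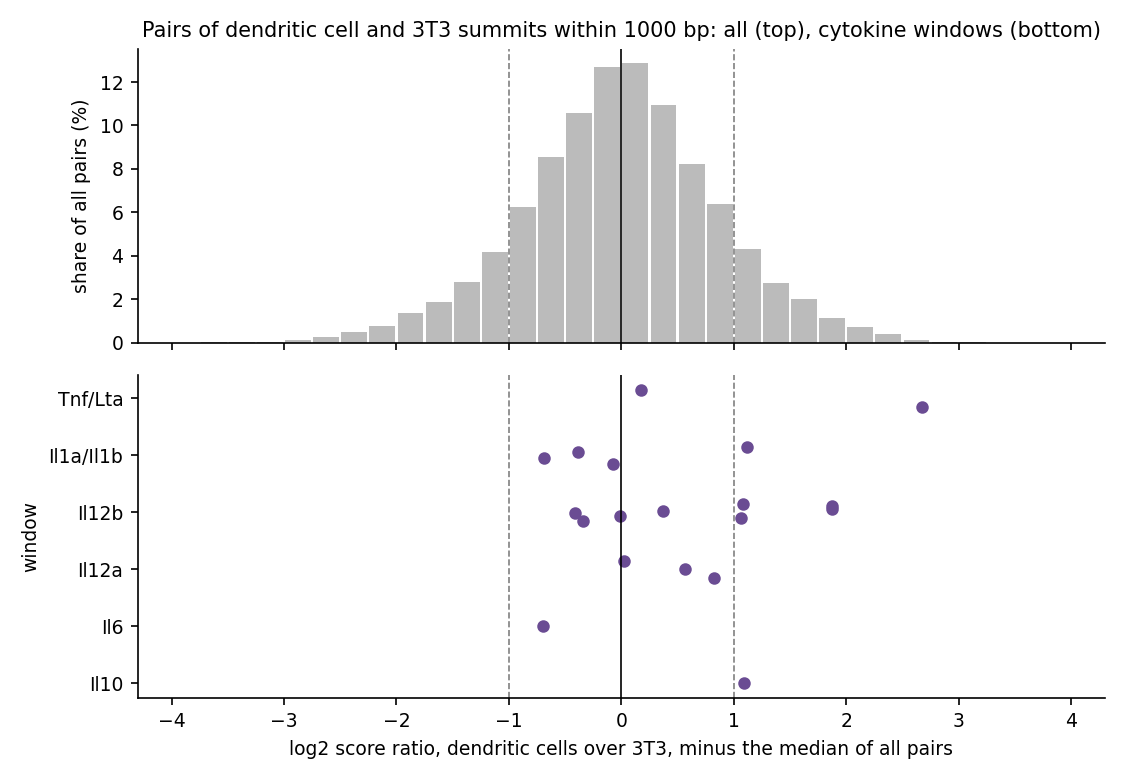
Log2 ratio of the dendritic cell to the 3T3 score at pairs of summits within 1000 bp, minus the median of all pairs (horizontal axis); the top panel gives the share of all 24378 pairs in percent and the lower panel the 19 pairs of the cytokine windows as points, by window. Dashed lines mark 2-fold; 7 points lie at or beyond it towards dendritic cells and none towards 3T3.

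The windows were cut by fixed positions, so their ends are not boundaries of the mark. The outermost summits inside the windows lay 0.02 to 62.1 kb from an end and had a median score of 38 (17 to 177). The nearest summits outside lay 1.32 to 212.8 kb beyond an end and had a median score of 40 (18 to 131).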

How the data were processed

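Per the submitters' processing notes, the authors used Bowtie, MACS 1.4 and the mm9 build. Per the labels' protocols, ChIP fragments averaged about 300 bp, were amplified by PCR (18 cycles) and were read from one end (36 bp). Per the file headers, peaks were called at a p of 1e-04 without a fragment model or a local background, with reads shifted by 150 bp. The sources used here do not say whether an input library entered the calling. The deposited values are 1 position and 1 score per summit, used as a signal (coverage height at the summit); every score is a whole number. The sources used here give no read totals. The depth is therefore unknown, and the lack of a summit says only that the caller listed none. No molecular identifiers are recorded, so intervals cover counting error only.

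Summits inside a window, ends included, were counted. A summit was shared when the other list had one within 1000 bp. Pairs are mutually nearest summits within that distance, and their score ratio was divided by the median of all pairs (1.09 in favour of dendritic cells before scaling). Percentiles are mid-ranks within a list, and the top 10% starts at percentile 90. Poisson, conditional and Clopper-Pearson intervals are exact, at 95%. Comparison windows tile the genome at the width of each cytokine window; they describe the lists and are not replicates. In each cytokine window the text names the highest summit of each list, the pairs, 3T3 summits and the longest run of dendritic cell summits, by position or by score in order along the chromosome; others were named after their values were seen. The members, lists and motifs were chosen with earlier results of these data known. Genes most like these, marker genes and other pathway genes needed an mm9 annotation and were not computed; gene order and promoters are from RefSeq on GRCm38.p6. The computations on summits were tested on lists planted at known places from the dendritic cell list, and on simulated numbers. The motif search was not part of these tests. The tools were matplotlib 3.10.9, pandas 2.3.3, scipy 1.17.1, numpy 2.4.6 and Python 3.11.15.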

Additional observations from a re-analysis of the deposited data

How the results depend on the processing

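No paired analysis was possible because each cell type is 1 library and the result comes from no test; for the same reason no library could be left out. The relative excess of dendritic cell summits over the 6 windows kept its direction and an interval above 0 under all 5 alternatives tried. Among these, merging of summits within 1000 bp could not change the numbers, since neighbouring summits of a list lay at least 1345 bp apart in the windows. The log2 ratios ran from 0.65 (windows widened by 50 kb) to 1.12 (equal numbers of top-scoring summits) around 0.81. Leaving out each window in turn gave 0.65 (without Il10) to 0.97 (without Il6). Summit numbers followed the window: 46 in dendritic cells and 26 in 3T3 with windows narrowed by 25% at both ends, and 130 and 85 with windows widened by 50 kb. With equal numbers of top-scoring summits, 39898 a list, 50 and 23 were left. The share of dendritic cell summits with no 3T3 summit nearby was 87.5, 83.3, 63.9 and 37.5% at 250, 500, 2000 and 5000 bp, against 82.2, 77.0, 59.2 and 40.7% of the whole list. The reverse share in 3T3 was 78.6, 71.4, 38.1 and 19.0% at these distances, against 82.7, 77.6, 60.4 and 43.9% of the whole list. Leaving out each window in turn gave shares at 1000 bp of 70.5 to 79.6% in dendritic cells and of 48.6 to 65.6% in 3T3, the highest without Il12b in both. The log2 ratio at Il6 was reversed, at 0.45, in narrowed windows; narrowing leaves fewer summits of both lists. At Il10 the interval of the log2 ratio reached below 0 with equal numbers of top-scoring summits (2.81, -0.15 to 8.30) and in widened windows (1.32, -0.03 to 2.83). At Il1a/Il1b it lay above 0 in widened windows (1.19, 0.21 to 2.26), and at Il12b with equal numbers of top-scoring summits (1.70, 0.01 to 3.77). The median relative log2 score ratio of pairs lay between 0.03 and 0.60 over 9 alternatives, and the number of pairs with a 2-fold higher dendritic cell score, 7 as reported, was 3 at 250 and 500 bp, 1 with top-scoring summits and 6 to 9 under the others. These, and the shares without single windows, were added after seeing the data. Merging of summits within 1000 bp left the numbers and shares over the 6 windows as they were. It moved the ratios and percentiles by less than their intervals, through the rest of the lists. A minimum score of 20 moved the numbers, shares and ratios by less than their intervals. Percentiles were not computed under that minimum. The cause of the other changes was not tested. Depth, which sets how many weak summits are called, is unknown for both lists.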
